A study of Mus musculus with 4 samples.

Results

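Fibroblast and connective tissue matrix genes were followed in cultures of mouse E14 embryonic stem (ES) cells, a line grown here on a layer of mitomycin-C-treated primary embryonic fibroblasts (feeders) in serum and leukemia inhibitory factor. The 2 groups were untreated E14 cells and E14 cells given valproic acid (VPA), an inhibitor of histone deacetylases, at 0.5 mM for 4 h, with 2 arrays each. The labels give the same feeders, serum and cytokine for all 4 samples, and both groups are the 1 cell line. Total RNA was hybridized to one-colour Affymetrix arrays, and the protocols in the labels name no step that separated ES cells from feeders before extraction. The genes were chosen by name, as genes of fibroblasts and of the matrix they make, with earlier results of these data known. Of 36 names, 34 had a probe set whose annotation gives only that gene symbol, among 19938 genes represented in this way on the array. Each of the 34 had 1 such probe set, so no choice between probe sets was needed. The probe set of Loxl2 carries several symbols and was left out, and Fbn1 was not analysed here.

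Fibroblasts build the fibrous part of the extracellular matrix. They secrete fibrillar collagens, which assemble with fibronectin, proteoglycans and other glycoproteins, and lysyl oxidases then crosslink the fibres. Proteases of the matrix and their tissue inhibitors remodel the product, and contractile fibroblasts add smooth muscle actin and its partners. Feeder fibroblasts support ES cells by secreting factors and matrix, and because they lie in the same dish their RNA can enter an ES cell preparation. Some of these genes, such as Vim and Fn1, are also expressed by ES cells or by cells leaving the ES state, while others, such as Prrx1, Twist2 and the type I collagen genes, mark mesenchymal cells.

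The measured differences of the fibroblast and matrix genes with VPA at this dose and time were small. No member passed limma's test across all probe sets at an adjusted p of 0.05, and the largest difference was 1.24-fold (Thy1, higher). At an unadjusted p under 0.05, Thy1 was higher and Ccdc80 was lower, with adjusted p of 0.539 and 0.527. Neither gene was at that p without untreated replicate 1 or without either VPA array. Those are 1 of 34 in each direction (2.94%), where 5.9% of all represented genes were higher and 2.71% lower. The share called after adjustment was 0% of all 35556 probe sets. In all, 24 members had a lower mean with VPA and 10 a higher one, and 46.3% of all represented genes had a lower mean. Without untreated replicate 2, 20 of 34 were lower, and without VPA replicate 2, 21. The sign of 15 members turned with an array left out or after a second quantile normalization, and the other 19 kept it under every alternative run for them.

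The median log2 difference of the members (VPA minus untreated) was −0.069, and that of all represented genes was 0.015. In absolute size the members' median was 0.11 and that of all represented genes 0.12. With VPA, 5 members lay wholly above their untreated values (Lum, Lox, Loxl1, Cnn1 and Thy1), or 14.7%, beside 24.1% of all represented genes. Wholly below were 8 members (Col5a1, Postn, Thbs1, Ccdc80, Fap, Tagln, Acta2 and Prrx1), or 23.5%, beside 18.1%. No member combined such a separation with group means 1.5-fold apart, a size that 0.973% of all represented genes reached upward and 0.266% downward. The 95% interval of the difference stayed within 2-fold either way for 34 of 34 members and for 98.4% of all represented genes. It stayed within 1.5-fold for 24 members (70.6%) and for 74.5% of all represented genes. The widest bounds among members were 1.70-fold lower (Col1a1) and 1.58-fold higher (Fstl1). The labels do not say that replicates came from separate cultures, so the p-values rest on a spread that could be technical only. With 2 arrays in each group, exact permutation reaches no p smaller than 0.33.

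**Figure D1:**
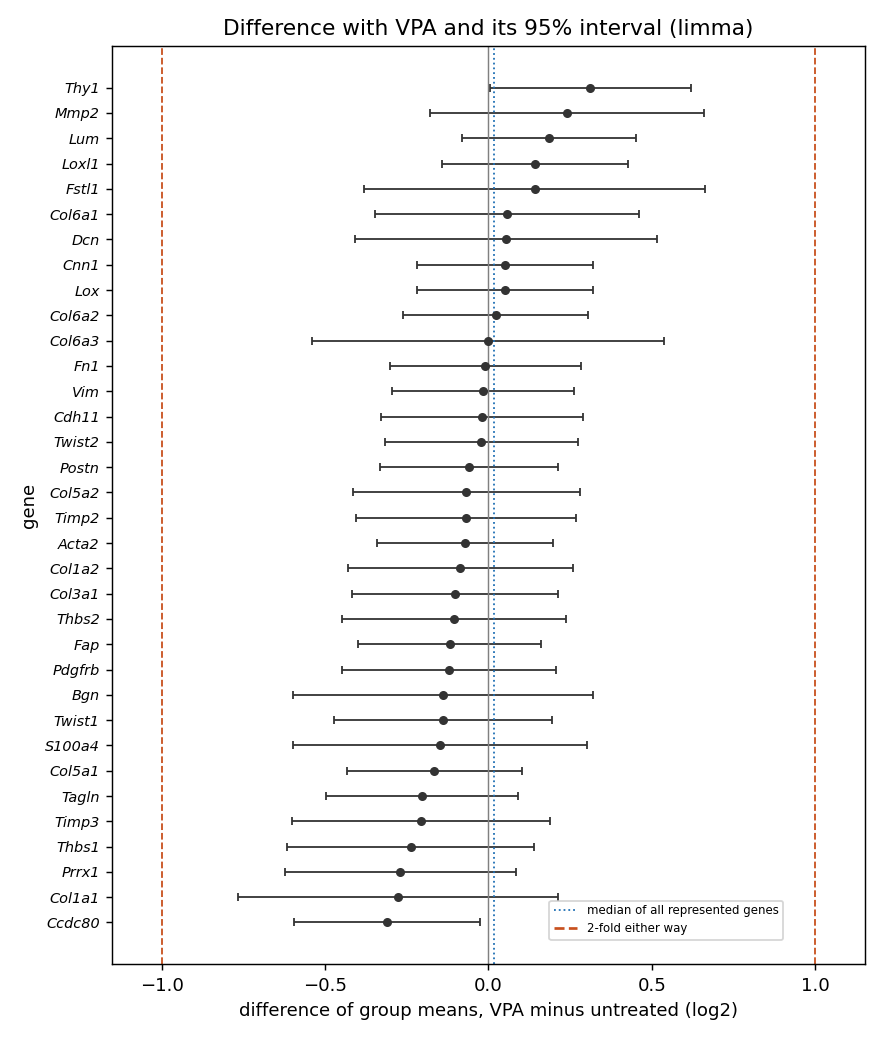
Difference of group means (VPA minus untreated, log2) of each of the 34 genes, with its 95% interval from limma as the bar; dashed lines mark 2-fold either way and the dotted line the median of all represented genes, 0.015. All intervals lie between the dashed lines, and those of Ccdc80 and Thy1 do not include 0.

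The culture's ES identity was plain in the signals. All 12 ES cell markers on a list picked by name were measured, and their median position was the 96.6th percentile of all probe sets. Pou5f1, which encodes Oct4, lay at 10.75 and 10.95 in untreated and 10.85 and 10.63 in VPA cells. The members' median position was the 62.1st percentile, with a span from 2.74 to 97.1. A percentile places a signal among the array's signals and does not rank transcripts, because probe sets differ in affinity. The median signal of all probe sets was 3.80 to 3.82 per array, and 5 of 34 members lay under it in their mean over the arrays: Lum, Fap, Postn, Ccdc80 and S100a4. If feeder RNA is present, fewer feeder cells and less RNA per feeder cell cannot be told apart, nor can either from a change in ES cells.

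**Figure D2:**
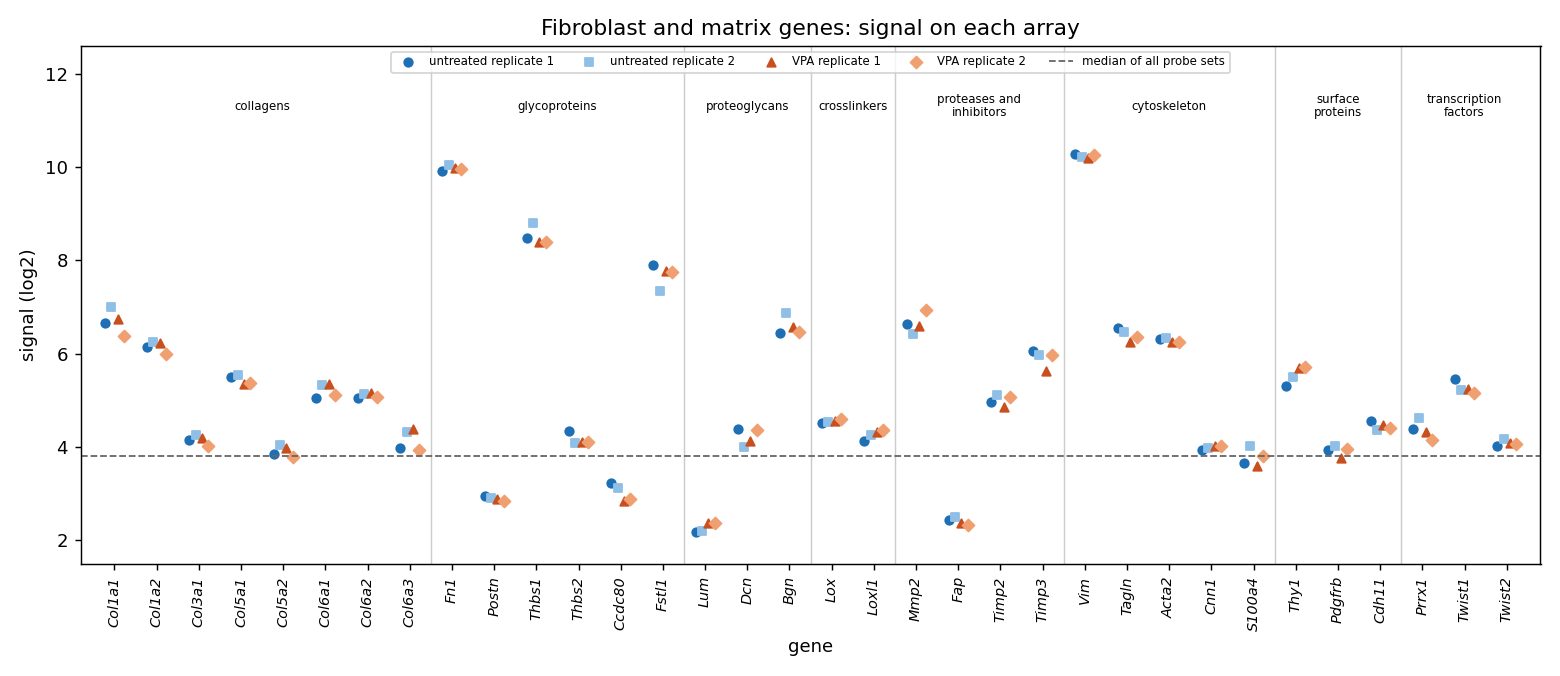
Log2 signal of each of the 34 genes on each of the 4 arrays, grouped by the role of the product; the dashed line is the mean of the array medians of all probe sets. Vim and Fn1 lie near 10, 5 genes have means under the dashed line, and the 4 points of a gene lie within 0.63 of each other.

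Collagens form the scaffold, with types I, III and V in striated fibrils and type VI in beaded filaments. Col1a1, a chain of type I collagen, lay at 6.67 and 7.00 in untreated and 6.74 and 6.37 in VPA cells. Its groups overlapped, and its range of 0.63 was the widest of any member. The difference was −0.28 ± 0.19 (SE), with a 95% interval from −0.77 to 0.21 (limma adjusted p = 0.709). It was −0.46 without VPA replicate 1 and −0.091 without VPA replicate 2. Col1a2, the other chain of the same molecule, lay at 6.15 and 6.25 in untreated and 6.24 and 5.99 in VPA cells. The 2 chains thus had the same highest and lowest arrays, untreated replicate 2 and VPA replicate 2, but Col1a2 differed by only −0.086 ± 0.13.

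Col3a1, the type III chain of pliable tissues, lay at 4.15 and 4.25 without VPA and 4.19 and 4.01 with it. Its difference of −0.10 ± 0.12 (SE) was smaller than its spread over the arrays, and ran from −0.19 (VPA replicate 1 left out) to −0.014 (VPA replicate 2 left out). Among the type V chains, which regulate fibril width, Col5a1 lay at 5.50 and 5.54 untreated and 5.35 and 5.36 with VPA. The Col5a1 groups did not overlap, with a difference of −0.17 ± 0.10 (limma adjusted p = 0.678). Col5a2, the gene next to Col3a1 in the RefSeq order of protein-coding genes, differed by −0.067 ± 0.13.

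The type VI chains did not share a direction with treatment. Col6a3 lay at 3.98 and 4.33 in untreated and 4.38 and 3.93 in VPA cells. Each group thus held a high and a low array, and the group means of 4.15 were equal to 2 decimals. Col6a1 and Col6a2, neighbours on chromosome 10, differed by 0.057 ± 0.16 and 0.022 ± 0.11 (SE), the second −0.030 after a second quantile normalization. Of the 8 collagen genes 6 had a lower mean with VPA and 2 a higher one, and 0 were called (limma, smallest adjusted p 0.678; 0 at an unadjusted p under 0.05).

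Most collagens shared an order of arrays that crossed the groups. For 7 of 8, all but Col5a1, untreated replicate 2 and VPA replicate 1 were both above untreated replicate 1 and VPA replicate 2. Of all 34 members 10 had this order, or 29.4%, and of all represented genes 17.8%. The other 3 were Fn1, Bgn and Twist2. The order was not particular to collagens or to the members. Pou5f1, Lamc1, Col18a1 and Flna, from the compared lists, had it too, while Sox2 and Nid1 did not. Relative to each gene's mean over the arrays, the collagens' median was −0.038 in untreated replicate 1, 0.11 in untreated replicate 2, 0.060 in VPA replicate 1 and −0.13 in VPA replicate 2. The pattern was noticed after the values were seen, and no test was made of it. Summed on the linear scale, the collagen signal was 332.2 to 381.0 in untreated and 300.6 to 354.8 in VPA cells, and these spans overlapped.

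**Figure D3:**
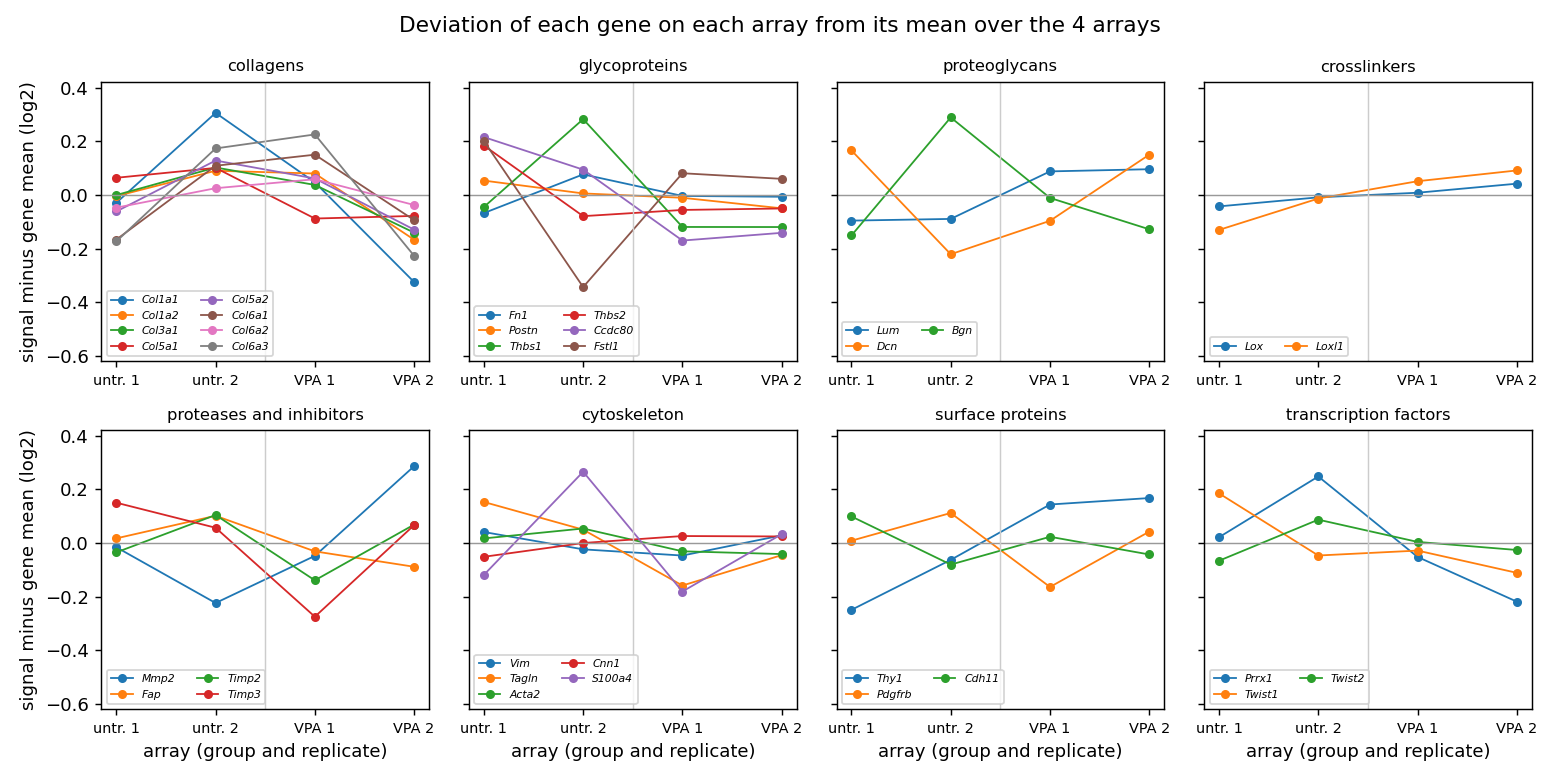
Signal of each gene on each array minus that gene's mean over the 4 arrays (log2), with 1 panel per role; lines join the points of a gene and the order of arrays has no meaning beyond the group. In the collagen panel 7 of 8 genes are high in untreated replicate 2 and VPA replicate 1 and low in the other arrays.

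The sequences upstream of 5 of those 7 collagen genes, all that had an entry in RefSeq's promoter table, are shown because the genes had the same order of arrays. They are the 250 bases before the transcript start in RefSeq (GRCm38.p6), read on the gene's strand, for Col1a2 (chr6:4505368-4505617, plus strand), Col3a1 (chr1:45311288-45311537, plus strand), Col6a1 (chr10:76726045-76726294, minus strand), Col6a2 (chr10:76623405-76623654, minus strand, the first listed of 2 windows) and Col6a3 (chr1:90843972-90844221, minus strand). Capitals mark matches on either strand to 3 motifs. The CCAAT box was searched by those letters, the TATA box was searched as TATAAA, and the GC box was searched as GGGCGG. A match on the other strand reads as the reverse complement, and 1 pair of neighbouring GC box matches, in Col6a2, overlapped.
Col1a2: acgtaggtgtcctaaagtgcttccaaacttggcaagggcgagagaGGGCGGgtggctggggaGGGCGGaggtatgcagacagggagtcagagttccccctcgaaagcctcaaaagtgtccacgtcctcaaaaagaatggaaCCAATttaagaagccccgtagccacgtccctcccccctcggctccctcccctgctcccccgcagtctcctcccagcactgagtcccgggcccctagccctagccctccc
Col3a1: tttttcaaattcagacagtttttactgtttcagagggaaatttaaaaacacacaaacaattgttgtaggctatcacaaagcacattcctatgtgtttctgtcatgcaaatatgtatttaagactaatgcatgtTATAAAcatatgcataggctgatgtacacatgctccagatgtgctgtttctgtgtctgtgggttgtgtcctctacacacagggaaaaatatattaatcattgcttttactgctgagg
Col6a1: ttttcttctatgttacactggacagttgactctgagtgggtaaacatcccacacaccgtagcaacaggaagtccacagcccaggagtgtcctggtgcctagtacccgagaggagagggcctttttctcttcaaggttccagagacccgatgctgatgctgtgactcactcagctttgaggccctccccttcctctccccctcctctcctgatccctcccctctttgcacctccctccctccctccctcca
Col6a2: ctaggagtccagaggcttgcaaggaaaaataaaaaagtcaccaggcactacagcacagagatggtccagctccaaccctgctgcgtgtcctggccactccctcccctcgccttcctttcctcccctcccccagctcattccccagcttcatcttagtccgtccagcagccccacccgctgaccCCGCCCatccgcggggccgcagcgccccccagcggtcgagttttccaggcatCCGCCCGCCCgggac
Col6a3: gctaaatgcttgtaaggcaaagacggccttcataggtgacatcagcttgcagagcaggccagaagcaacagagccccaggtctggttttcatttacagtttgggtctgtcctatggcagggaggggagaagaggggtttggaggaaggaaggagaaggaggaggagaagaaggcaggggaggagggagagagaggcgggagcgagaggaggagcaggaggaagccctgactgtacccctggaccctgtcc
Col1a2 held 1 CCAAT match, starting 109 bases before the start, and 2 GGGCGG matches. Col3a1 held 1 TATAAA match, 117 bases before the start. Col6a2 held 3 GGGCGG matches, all on the other strand, and Col6a1 and Col6a3 held no match to any of them. GGGCGG was thus in 2 of the 5 windows, CCAAT and TATAAA in 1 each. RefSeq's table had entries for 19 of the 34 members, and the first listed window of each gene was counted. CCAAT was present in 7 of them (36.8%) and in 34.5% of 27025 genes, TATAAA in 5 (26.3%) and in 13% of genes, and GGGCGG in 9 (47.4%) and in 32.9% of genes. With every listed window of a gene counted, TATAAA was present in 6 of the 19 (31.6%, Postn added) and in 14.3% of genes, and the members' counts for CCAAT and GGGCGG were the same. The CArG box, the element bound by serum response factor, was searched only as CC, 6 bases of A or T, then GG. In the first listed windows that form was present in 0 of the 19 and in 1.4% of genes. Forms that depart from these letters were not searched, and Tagln had no entry. A match in a window of 250 bases says only that these letters are there.

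Glycoproteins link collagen to cells. Fn1, fibronectin, lay at 9.91 and 10.05 in untreated and 9.97 and 9.97 in VPA cells, at the 96.5th percentile of signals. Its groups overlapped, and its difference of −0.0098 ± 0.11 (SE) had a 95% interval from −0.30 to 0.28. Thbs1, thrombospondin 1, a matricellular regulator of adhesion and of TGF-beta activation, lay at 8.47 and 8.80 without VPA and 8.40 and 8.40 with it. Both VPA arrays were below both untreated ones, yet the difference of −0.24 ± 0.15 did not pass (limma adjusted p = 0.671). Against untreated replicate 1 alone the Thbs1 difference was −0.075, and against untreated replicate 2 alone −0.40. Thbs2, its relative, differed by −0.11 ± 0.13.

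Ccdc80, a secreted matrix-binding protein, had the smallest unadjusted p of the members (0.0381 with limma, adjusted p = 0.527). It lay at 3.23 and 3.11 in untreated and 2.85 and 2.87 in VPA cells, a difference of −0.31 ± 0.11 (SE). All 4 values were below the median signal of their array, at the 31.5th percentile. Postn, periostin, a matricellular protein of fibroblasts, was lower still on the array's scale, at 2.95, 2.90, 2.88 and 2.84 in the same order. Its 4 values spanned 0.10 and its difference was −0.060 ± 0.10. Fstl1, a secreted glycoprotein of mesenchyme, was uneven between the untreated arrays, at 7.90 and 7.35, and even with VPA, at 7.78 and 7.76. Its difference of 0.14 ± 0.20 was smaller than the gap between the untreated arrays.

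Small leucine-rich proteoglycans coat and space collagen fibrils. Bgn, biglycan, lay at 6.44 and 6.88 in untreated and 6.58 and 6.46 in VPA cells, with overlapping groups and a difference of −0.14 ± 0.18 (SE). Dcn, decorin, lay at 4.39 and 4.00 untreated and 4.12 and 4.37 with VPA, so its low arrays were those in which the collagens were high. Lum, lumican, whose gene lies next to Dcn on chromosome 10, was at the 2.74th percentile, with values of 2.18, 2.19, 2.36 and 2.37. The VPA values of Lum were both higher, by 0.18 ± 0.10, and did not pass (limma adjusted p = 0.64). Among genes for lysyl oxidases, which crosslink collagen and elastin, Lox differed by 0.051 ± 0.10 and Loxl1 by 0.14 ± 0.11. Loxl1 lay at 4.13 and 4.25 untreated and 4.32 and 4.36 with VPA, and neither gene's groups overlapped.

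Proteases and inhibitors went both ways. Mmp2, gelatinase A, lay at 6.63 and 6.43 in untreated and 6.60 and 6.94 in VPA cells. Its groups overlapped, and the difference of 0.24 ± 0.16 (SE) was 0.072 without VPA replicate 2, its highest array, and 0.41 without VPA replicate 1. Fap, a membrane serine protease of activated fibroblasts, was dim at 2.42, 2.51, 2.37 and 2.32 and differed by −0.12 ± 0.11. Timp3, a matrix-bound metalloproteinase inhibitor, lay at 6.06 and 5.96 untreated and 5.63 and 5.97 with VPA. Only VPA replicate 1 stood below the rest, and the difference of −0.21 ± 0.15 was −0.037 without it and −0.38 without VPA replicate 2. Timp2, which binds Mmp2, differed by −0.070 ± 0.13.

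The cytoskeletal members had a median range over the arrays of 0.095, although S100a4 spanned 0.45. That median was 0.26 over all members and 0.30 over all represented genes. Vim, vimentin, the intermediate filament of mesenchymal cells, lay at 10.28 and 10.21 in untreated and 10.19 and 10.26 in VPA cells. The 4 values spanned 0.088, and the difference of −0.018 ± 0.11 (SE), which was 0.0076 after a second quantile normalization, had a 95% interval from −0.30 to 0.26. Acta2, smooth muscle actin, lay at 6.31 and 6.35 without VPA and 6.26 and 6.25 with it, a difference of −0.072 ± 0.10. Tagln, transgelin, an actin-binding protein of contractile cells, lay at 6.56 and 6.46 untreated and 6.25 and 6.36 with VPA. The groups of both genes did not overlap, and Tagln differed by −0.20 ± 0.11 (limma adjusted p = 0.641). Cnn1, calponin, went the other way by 0.051 ± 0.10. S100a4, a calcium-binding protein also called fibroblast-specific protein, lay at 3.65 and 4.03 untreated and 3.58 and 3.80 with VPA, with overlapping groups.

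At the cell surface, Thy1, a glycolipid-anchored glycoprotein of fibroblasts, lymphocytes and neurons, was the member with the largest difference. It lay at 5.31 and 5.49 in untreated and 5.70 and 5.72 in VPA cells, a difference of 0.31 ± 0.12 (SE) with a 95% interval from 0.0037 to 0.62 (limma adjusted p = 0.539). Pdgfrb, a receptor for platelet-derived growth factor on mesenchymal cells, lay at 3.93 and 4.03 untreated and 3.75 and 3.96 with VPA. Its groups overlapped, and it differed by −0.12 ± 0.13, or by −0.018 without VPA replicate 1. Cdh11, the cadherin of mesenchyme, differed by −0.019 ± 0.12. Thy1 and Pdgfrb, both fibroblast surface markers, therefore had means on opposite sides of their untreated levels, and neither passed.

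The transcription factors of mesenchyme all had a lower mean with VPA. Prrx1, a homeobox factor of limb and craniofacial mesenchyme, lay at 4.39 and 4.61 in untreated and 4.31 and 4.15 in VPA cells. Its groups did not overlap, and the difference was −0.27 ± 0.14 (SE; limma adjusted p = 0.609), or −0.16 without untreated replicate 2. Twist1, a helix-loop-helix factor of mesoderm and neural crest, lay at 5.45 and 5.22 untreated and 5.24 and 5.16 with VPA. Its groups overlapped, with a difference of −0.14 ± 0.13 that was −0.023 against untreated replicate 2 alone and −0.25 against untreated replicate 1 alone. Twist2, its close relative, differed by −0.021 ± 0.11.

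The members' median range over the arrays, 0.26, was no larger than that of all represented genes, 0.30. The deviation of each member from its mean over the arrays was summarised per array. The median deviation was −0.0098 in untreated replicate 1, 0.067 in untreated replicate 2, −0.011 in VPA replicate 1 and −0.042 in VPA replicate 2. Over all represented genes the same medians ran from −0.012 to 0.016. Untreated replicate 2 was the highest array for 15 of 34 members (44.1%), and for 27.7% of all represented genes. The lists compared below also deviated there. Actin-linked genes had a median deviation of 0.12 (highest there for 12 of 17), basement membrane genes 0.089 (7 of 14) and collagen processing enzymes −0.099. Untreated replicate 2 was also the array least like the others over all probe sets. Its SDs of the difference were 0.311 to 0.360, against 0.285 to 0.301 among the remaining pairs. Summed on the linear scale, the members' signal was 3881 to 4004 in untreated and 3802 to 3849 in VPA cells. These spans did not overlap. Without Vim and Fn1 they were 1679 to 1756 and 1617 to 1629, which did not overlap either, whereas Vim and Fn1 alone summed to 2202 to 2249 and 2172 to 2232. Over all represented genes the sum was 2316973 to 2464102 in untreated and 2440902 to 2491409 in VPA cells, with overlapping spans. A separation of sums was not particular to the members. Among the lists compared below, endoderm (117 to 129 and 107 to 110), endothelial and TGF-beta genes also lay apart and lower with VPA. Blood, collagen processing and other matrix protease genes lay apart and higher. Sums of the trophoblast, muscle, basement membrane, matrix receptor and actin-linked lists overlapped. How much of each signal came from feeders and how much from ES cells was not tested.

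A further list of fibroblast markers shares no gene with the members, though it counts Xist, which is not specific to fibroblasts. Of 29 names 28 were represented, at a median position of the 52.7th percentile, with a median log2 difference of −0.082, 19 lower and 9 higher. Their summed linear signal was 1579 to 1713 in untreated and 1487 to 1512 in VPA cells. That sum leans on Sparc, the brightest gene of the list (93.5th percentile). With the linear signal of Sparc taken off the sum of each array, the spans of the groups overlapped. None of the 28 genes was called, and at an unadjusted p under 0.05 1 was higher and 0 lower. That gene was Cav1, caveolin 1, which differed by 0.44 ± 0.12 (SE; limma adjusted p = 0.494), from 4.06 and 3.85 to 4.36 and 4.43. Sparc, a collagen-binding glycoprotein, lay at 9.09 and 9.18 untreated and 8.89 and 8.86 with VPA, a difference of −0.26 ± 0.11. Cd248, endosialin, a stromal surface protein, differed by −0.25 ± 0.11.

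ES cell markers had a median difference of −0.10 over 12 genes, 7 lower and 5 higher, and 0 were called (limma). At an unadjusted p under 0.05 none was higher and 2 were lower. These were Nanog, a core factor of pluripotency, at 10.88 and 10.65 without VPA and 10.18 and 10.39 with it (−0.48 ± 0.14, SE; limma adjusted p = 0.503), and Utf1, a chromatin-associated factor of ES cells (−0.33 ± 0.12; adjusted p = 0.515). Their summed linear signal was 18108 to 20022 in untreated and 18631 to 19074 in VPA cells, and these spans overlapped. Markers of other cell types sat lower: the median position was the 49.1st percentile for 8 endoderm, 51.9th for 7 trophoblast, 27.7th for 6 blood, 30.4th for 4 endothelial and 47.9th for 4 muscle genes. Their median differences were −0.22, 0.021, −0.019, −0.14 and −0.098 in the same order, and 0 of these genes were called with limma. At an unadjusted p under 0.05 the endoderm regulators Gata6 (−0.42 ± 0.11, SE) and Sox7 (−0.59 ± 0.17) and the endothelial receptor gene Kdr (−0.40 ± 0.14) were lower. Dab2, an endocytic adaptor of endoderm, was higher by 0.36 ± 0.14.

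Genes that act on the same matrix were compared from lists chosen by function. Enzymes that modify, fold or cleave collagen, 18 of 20 names measured, had a median difference of 0.11, with 12 higher and 6 lower. Of these, 2 were higher at an unadjusted p under 0.05: P4ha1, a prolyl hydroxylase subunit, by 0.51 ± 0.17 (SE) and Plod3, a lysyl hydroxylase, by 0.36 ± 0.13. Bmp1, the procollagen C-proteinase, differed by −0.28 ± 0.11. P4ha1 lay at 7.42 and 7.01 in untreated and 7.66 and 7.78 in VPA cells, so its groups did not overlap. None of the 18 was called after adjustment (limma, smallest adjusted p 0.51).

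Receptors of the matrix, 20 genes, had a median difference of 0.045, with 10 higher and 10 lower. Sdc1, the heparan sulfate proteoglycan syndecan 1, lay at 5.49 and 5.38 without VPA and 5.87 and 5.97 with it, a difference of 0.49 ± 0.11 (SE; limma adjusted p = 0.472). Ddr1, a collagen-binding receptor kinase of epithelia, differed by 0.45 ± 0.11 from 5.95 and 6.07 to 6.45 and 6.45. Itga5, the fibronectin receptor subunit, differed by −0.30 ± 0.12. Neither Sdc1 nor Ddr1 overlapped between groups, and these were the only members of that list at an unadjusted p under 0.05.

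Basement membrane genes, 14 in number, had a median difference of −0.072, with 0 at an unadjusted p under 0.05 in limma. Hspg2, perlecan, lay at 7.93 and 8.48 in untreated and 7.87 and 7.67 in VPA cells, high in untreated replicate 2 as Col1a1 and Bgn were. TGF-beta pathway genes, 17 of 18 names measured, had a median of −0.019, also with 0 at that p, and Smad3, Ltbp1 and Smad7 differed by 0.26 ± 0.14, 0.20 ± 0.12 and −0.19 ± 0.12 (SE). Actin-linked and serum response factor target genes, 17 in number, had a median of −0.056 with 1 lower, Filip1l (−0.42 ± 0.11). Other matrix proteases and inhibitors, 18 of 19 names, had a median of 0.087 with 1 higher, Adam10, a membrane sheddase (0.42 ± 0.11). No gene of these lists was called over all probe sets (smallest adjusted p 0.48).

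**Figure D4:**
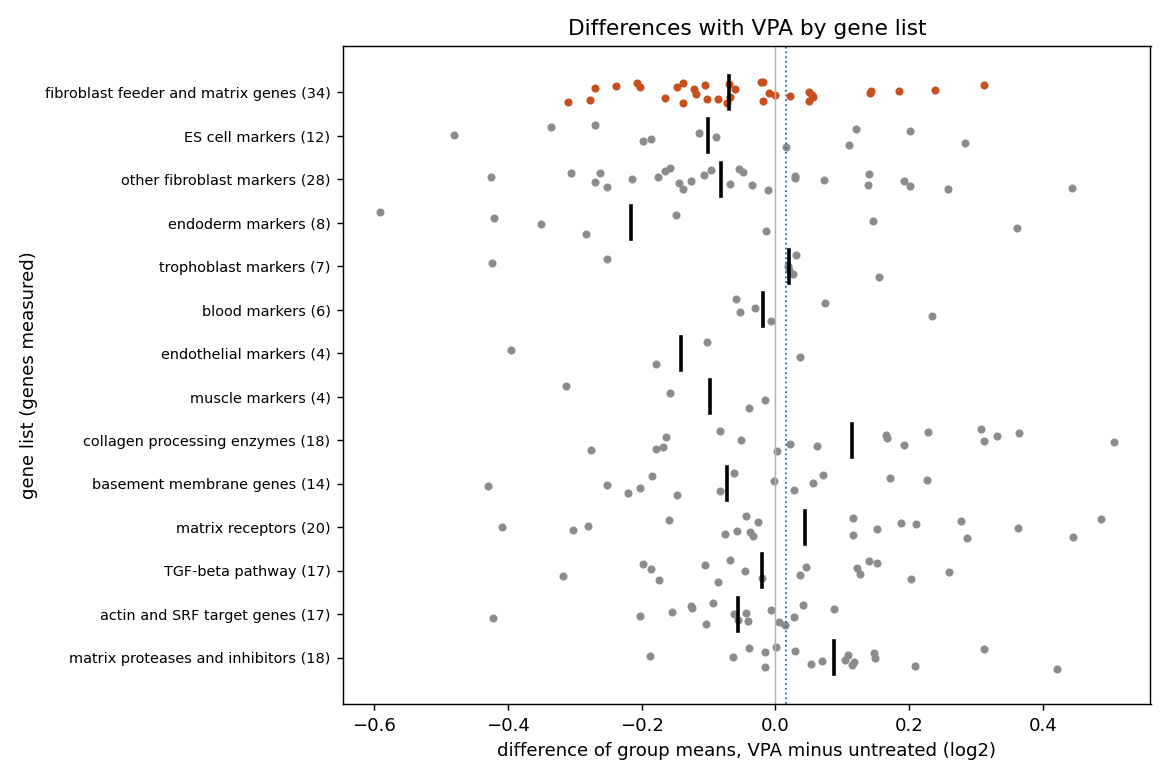
Difference of group means (VPA minus untreated, log2) of every measured gene in each list, with the median of the list as a black bar; the dotted line is the median of all represented genes, 0.015, and the numbers of genes are in parentheses. The 34 fibroblast and matrix genes lie between −0.31 and 0.31, with a median of −0.069.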

How the data were processed

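The deposited values are log2 signals of probe sets on each array, and the submitters' processing notes name RMA and Affymetrix Expression Console 1.1. In RMA, background is corrected, arrays are quantile-normalized and the probes of a set are summarised. The sources used here do not say which arrays entered this step together. That the scale is log2 follows from RMA and from the range of the values, and precision is limited by the number of arrays. Each array held 35556 probe sets, of which 21789 had 1 gene symbol in the platform annotation. Where a gene had more than 1 such probe set, the one of highest mean stood for it. Groups came from the labels. Groups were compared with limma 3.58.1 (lmFit, eBayes; R 4.3.3), two-sided, over all probe sets with treatment as the only term and Benjamini-Hochberg adjustment. The members and lists were chosen with earlier results of these data known. Of 178 names in 13 lists 173 were represented. Values on every array are printed for the 12 members of smallest p, the 8 of largest range and 14 picked by name. From each list at most the 3 genes of smallest p are named, and Pou5f1 and the values of Dcn on every array were added after they were seen. Motifs were searched in the 250 bases upstream in RefSeq's promoter table, in the first listed window of each gene. The scripts were tested on simulated data. The alternatives were another normalization, centring, a filter on dim probe sets, a replicate block, trended and robust moderation, array weights, averaged probe sets and leaving out each array.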

Additional observations from a re-analysis of the deposited data

How the results depend on the processing

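With limma, 0 members were called under each of the 12 alternatives run, 1 of which (dimmer probe sets left out) tested only 29 of the 34, and 0 probe sets under each of those that test probe sets, and the smallest adjusted p of a member was 0.390. The members' median difference stayed below 0, between −0.048 and −0.094 with an array left out, and −0.091 after a second quantile normalization. Of the 2 members at an unadjusted p under 0.05, the higher one (Thy1) was lost after a second quantile normalization (0 members) and with trended moderation (0). With the dimmer probe sets left out, 0 were higher and 0 lower. Ccdc80 was not tested there. Each of those counts ran from 0 to 1 with an array left out, and without untreated replicate 1 they were Fstl1 (higher by 0.41, limma adjusted p 0.409) and Thbs1 (−0.40, adjusted p 0.411) in place of Thy1 and Ccdc80. With the replicate number as a block, 0 were higher and 0 lower, with 0 called. The numbers share only a label: same-numbered deviations correlated at −0.097 over all probe sets and −0.17 over represented genes, and a crossed pairing, chosen after seeing the data, called 0 probe sets. Of 403 member values under these alternatives, 24 had the sign turned, from 15 genes. After a second quantile normalization Col6a2 was −0.030 and Vim 0.0076. With an array left out, the turned differences ran from −0.21 to 0.037 for Col1a2, −0.16 to 0.028 for Col5a2, −0.081 to 0.19 for Col6a1, −0.026 to 0.070 for Col6a2 and −0.23 to 0.23 for Col6a3. They ran from −0.082 to 0.062 for Fn1, −0.24 to 0.026 for Thbs2, −0.13 to 0.41 for Fstl1, −0.14 to 0.25 for Dcn and −0.36 to 0.081 for Bgn. For Timp2 they ran from −0.17 to 0.034, for Vim −0.055 to 0.020, for S100a4 −0.34 to 0.045, for Cdh11 −0.11 to 0.071 and for Twist2 −0.098 to 0.055. Another 12 genes kept their sign with an array left out but moved over 1.5 times; besides those given with their values above, Fap ran from −0.16 to −0.077, Postn from −0.084 to −0.036, Cnn1 from 0.025 to 0.077 and Loxl1 from 0.085 to 0.20. The cause of these changes was not tested. The 95% interval stayed within 2-fold for 33 or 34 of 34 members with an array left out. Signals of Lum, Fap, Postn and Ccdc80 lie below the array median, so signal over background limits what their differences can show. S100a4, Col5a2, Pdgfrb, Cnn1, Twist2, Col3a1, Col6a3, Thbs2, Dcn, Loxl1 and Prrx1 also lie lower than Hand1, a trophoblast marker at the 58.6th percentile. The same limit may therefore reach them.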
